A study of Mus musculus with 23 samples.

Results

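Voltage-gated sodium and calcium channel genes were examined in primary hippocampal neurons with and without Nedd8. The set was proposed with earlier results of these data known. Protein-coding genes of the GRCm39 mouse annotation were taken by symbol, with at least 50 reads summed over all libraries. The symbols were those of sodium channel α subunits (Scn with a number and the letter a) and β subunits (Scn with a number and the letter b). Those of calcium channel pores (Cacna1a to Cacna1i) and of α2δ, β or γ subunits of the calcium channel family (Cacna2d, Cacnb, Cacng) were taken as well. Of 56941 genes in the count files, 39 had such a symbol, 36 of these reached 50 reads, and 34 of the 36 are described here. The genes just inside the limit were Cacna1f with 53 reads and Scn11a with 74, and those outside it were Scn4a with 20, Cacng1 with 16 and Scn10a with 4.

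Sodium channels open on depolarisation and carry the rising phase of the action potential, and calcium channels turn depolarisation into calcium entry, which triggers transmitter release at the synapse and activates transcription from the soma. In both families one large α subunit forms the pore and the voltage sensor. Sodium channel β subunits are single-pass membrane proteins that tune gating and bind adhesion molecules, whereas calcium channel β subunits are cytosolic and α2δ subunits extracellular, and both carry the pore to the membrane. The γ family is named after a muscle calcium channel subunit, but most of its members in brain are transmembrane AMPA receptor regulatory proteins (TARPs), which traffic AMPA-type glutamate receptors to the synapse.

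The neurons were taken from the hippocampi of newborn (P0) mice homozygous for a conditional Nedd8 allele (Nedd8cKO), in which LoxP sites surround exons 2 and 3 of Nedd8. All cultures carried that allele. They were infected with lentivirus that encodes RFP alone (11 libraries, the control, here RFP libraries or controls) or CRE recombinase with RFP (12 libraries, here CRE), both driven by the Synapsin1 promoter, which is active in neurons. Loss of Nedd8 by cell type was not measured. The labels give 12 days in culture. The legends of the study give fewer animals or biological replicates than libraries, so that libraries share a source and p-values over libraries can be too small. Unless stated otherwise, 21 libraries were compared, 11 CRE and 10 RFP, those of the count table of the study, which leaves out CRE 3-3 and RFP 3-2. The methods section of the study names another pair as removed from its differential analysis, CRE 1-3 and CRE 3-3. The count table was followed here, so CRE 1-3 is kept. The number before the hyphen was read as a culture and the second as a library, which neither the labels nor the study say in words. Below, culture stands for that first number.

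Levels are given as counts per 1000000 reads in genes (CPM), scaled by library composition. Total counts ran from 7430401 to 13345552 in the 11 CRE libraries and from 9833872 to 17112815 in the 10 RFP libraries. Nedd8 itself had a median of 12.1 CPM in CRE libraries (5.92 to 18.0) and of 62.4 CPM in RFP libraries (44.1 to 76.0), with no overlap. Libraries CRE 1-3 and RFP 2-4 stood apart from the other 19: mitochondrial genes held 0.261% and 3.43% of their counts against 7.0% to 11.1%, and the more G and C a gene held, the higher its level in them (Spearman 0.728 and 0.398 over genes, against -0.309 to 0.0925). Values over the 19 libraries without these therefore stand beside those of most channel genes. Of neuron markers, 8 of 15 were lower and 1 higher in CRE libraries, and the summed level of 10 glutamatergic neuron markers had a median of 1921 CPM in CRE (1475 to 2732) and 5107 CPM in RFP libraries (3541 to 5939). Of 13 GABA neuron markers 3 were lower and 3 higher, and 5 and 1 over 19 libraries, with a median summed level of 2037 CPM in CRE (1651 to 3124) and 2849 CPM in RFP libraries (2380 to 3865). In such bulk samples fewer cells of a type and less RNA per cell cannot be told apart, and the part of either in the values below was not tested.

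Of the 34 channel genes, 28 had enough counts to be tested with edgeR's quasi-likelihood test across 14488 genes. At an adjusted p under 0.05, 5 were higher in CRE libraries (Scn4b, Cacng5, Cacng3, Cacng2 and Cacng7) and 8 were lower (Cacna2d1, Scn2a, Scn2b, Cacnb2, Cacnb1, Cacna1c, Scn8a and Cacna1b). Over all genes tested 16.4% were called higher and 13.8% lower. The median log2 fold change was -0.24 over the 28 genes and 0.02 over all 14488. The genes called higher were 4 of the 6 tested γ genes and Scn4b, a sodium channel gene of very low level, while the genes called lower came from each of the other 5 families. Over the 19 libraries without CRE 1-3 and RFP 2-4, 5 of these 28 were called higher and 14 lower, against 19.4% and 18.7% of all genes. Leaving out CRE 1-3 alone gave 5 and 14, against 19.2% and 18.7%. Over all 23 libraries the counts were 5 and 6, against 16.4% and 11.8%. With the counts of a group summed per culture, 3 sums against 3, 5 of the 28 were called higher and 11 lower, against 11.8% and 11% of all genes. In that fit the 5 higher calls were those named above, Cacna1b lost its call (adjusted p = 0.0508, edgeR), and Scn3a, Cacna1e, Cacna1h and Cacng4 were called lower. Stricter thresholds follow the volcano plot of the study, a log2 change over 1.3 and a p below 1e-06, with the second applied here to the adjusted p where the plot names a p-value. They were passed by 0 of the 28 genes and by 1.39% of all genes tested with edgeR. With DESeq2 they were passed by 1 of the 28, against 549 of 14488 genes. An unadjusted edgeR p under 0.05 was found for 16 of the 28, and its share over all genes was not counted. In 3 of the 28 genes every CRE library lay below every RFP library (Scn2a, Scn8a and Scn2b), against 2.08% of all genes, and in 0 of the 28 every CRE library lay above every RFP library, against 2.64%. A scaling on the summed counts of the 15 neuron markers shifted the median of all genes to 0.62 and that of the 28 to 0.36. It sets the channel genes against these markers, of which 8 were themselves called lower. Whether the markers stand for the RNA of neurons was not tested. On that scale 14 of the 28 were called higher and 2 lower, against 59.6% and 2.92% of all genes. The distance between both medians was -0.26 in the main comparison and -0.25 on the neuron scale. Since that scaling moves every gene by a like amount, both distances could hardly differ.

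**Figure D1:**
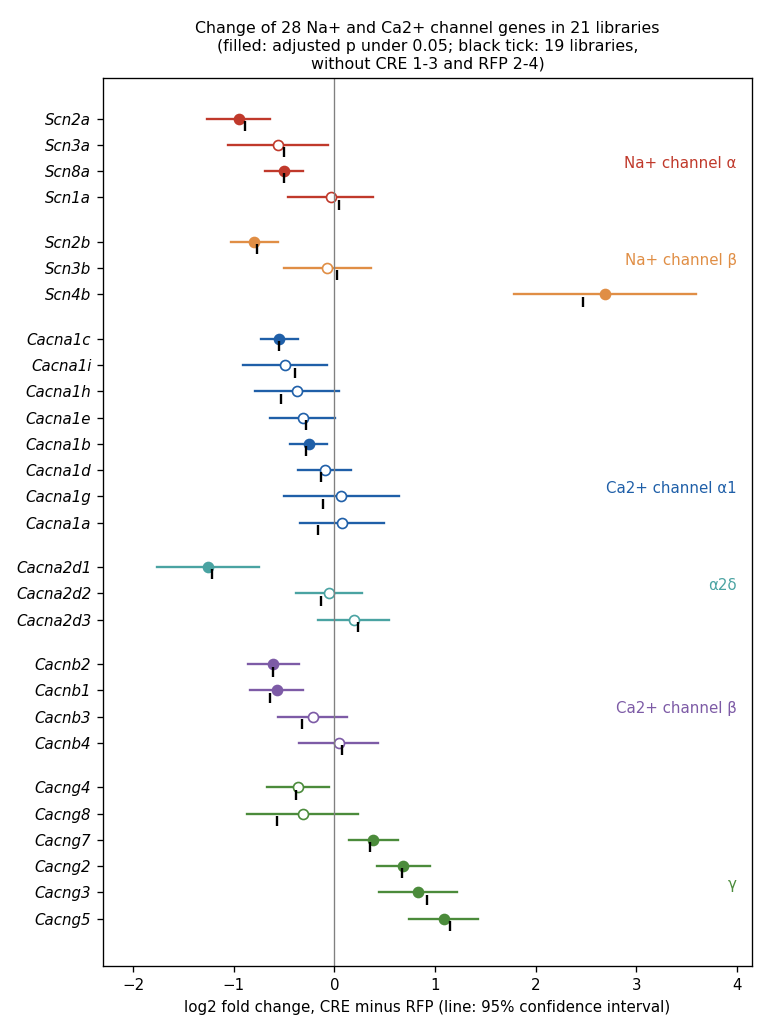
Log2 fold change between CRE and RFP libraries (horizontal axis) of the 28 tested channel genes, grouped by family, with 95% confidence intervals over 21 libraries. Filled points passed an adjusted p of 0.05 and black ticks give the value over 19 libraries. Scn2a, Cacna2d1 and Scn2b lie left of 0 and 4 of 6 γ genes right of it.

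Among the sodium channel pores, Scn2a fell by 48.3% and Scn8a fell by 29.5%, whereas Scn1a was not called. Scn2a (Nav1.2, the main sodium channel of immature axons and of dendrites; chr2:65451102-65597795, plus strand) had a lowest, median and highest level of 276, 326 and 367 CPM in RFP libraries and of 64.4, 191 and 207 CPM in CRE libraries. The groups did not overlap, and CRE 1-3 was the lowest library. The mean was 320.4 ± 27.6 CPM (SD, n = 10) in controls and 168.0 ± 48.2 CPM (SD, n = 11) with CRE, a log2 fold change of -0.95 ± 0.15 (SE, adjusted p = 2.9e-05, edgeR) and -0.89 ± 0.10 over 19 libraries. Scn2a also remained lower on the neuron scale, at -0.40.
Scn8a (Nav1.6, which takes over at the mature axon initial segment and at nodes of Ranvier; chr15:100767739-100943819, plus strand) had a lowest, median and highest level of 194, 215 and 287 CPM in RFP libraries and of 132, 161 and 183 CPM in CRE libraries. Here too the groups did not overlap, and CRE 1-3 was the median CRE library, at 161 CPM. Its log2 fold change was -0.50 ± 0.09 (SE, adjusted p = 0.000141, edgeR), and -0.50 ± 0.08 over 19 libraries, but it turned to 0.09 on the neuron scale, where the call was lost.

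The bases before the first RefSeq start of Scn2a and Scn8a were located in GRCm39 by their letters. The stretch outside every annotated exon is shown for these sodium channel pore genes, which were called lower in the main comparison. The stretch of Scn2a (chr2:65450863-65451101, plus strand) held 31.0% G and C and 2 CG dinucleotides, and that of Scn8a (chr15:100768276-100768506, plus strand) 66.7% and 28. Capitals mark a motif match:
Scn2a: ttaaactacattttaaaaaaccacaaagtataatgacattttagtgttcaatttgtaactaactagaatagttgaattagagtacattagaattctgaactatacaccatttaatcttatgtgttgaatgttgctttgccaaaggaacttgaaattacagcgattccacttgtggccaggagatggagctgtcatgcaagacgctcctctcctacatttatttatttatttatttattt
Scn8a: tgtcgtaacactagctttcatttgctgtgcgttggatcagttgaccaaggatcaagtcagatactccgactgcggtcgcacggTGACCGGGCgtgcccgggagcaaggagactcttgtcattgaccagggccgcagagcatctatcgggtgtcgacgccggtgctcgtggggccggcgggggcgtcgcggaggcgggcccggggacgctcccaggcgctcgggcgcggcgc
The motifs were searched on both strands, and their background is the 250 bases before 21262 protein-coding starts of RefSeq (GRCm38.p6): TATAAA is found in 11.6% of these, CCAAT in 35.4%, GGGCGG in 42.6%, TGACGTCA in 1.92% and TGACNNNGC in 10.4%. A match is a description of the letters. The stretch of Scn8a held 1 TGACNNNGC and that of Scn2a none of the 5. Both genes have a second RefSeq start further into the gene, and the 250 bases before it held 53.2% G and C and 9 CG dinucleotides in each. Those of Scn2a held 1 TATAAA, and those of Scn8a none of the 5 motifs. Which start was in use was not measured. Of the 34 channel genes 27 had an entry in that table.

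Scn1a (Nav1.1, prominent in GABA neurons) had 80.3 ± 20.0 CPM (SD, n = 10) in controls and 79.3 ± 24.9 CPM (SD, n = 11) with CRE. Its log2 fold change was -0.04, with a 95% confidence interval of -0.46 to 0.39, and 0.04 ± 0.12 over 19 libraries. Library CRE 1-3 held 14.7 CPM, while the other 10 CRE libraries lay between 73.3 and 115 CPM, inside the range of the RFP libraries. Scn1a turned to 0.51 on the neuron scale. Scn3a (Nav1.3, the embryonic channel) had 57.2 ± 8.50 CPM (SD, n = 10) in controls and 39.2 ± 18.7 CPM (SD, n = 11) with CRE, a log2 fold change of -0.56 ± 0.24 (SE, adjusted p = 0.0826, edgeR). Over 19 libraries its adjusted p was 0.0281, at -0.50 ± 0.18. The CRE libraries of Scn3a were spread from 6.81 CPM (CRE 1-3) to 71.1 CPM (CRE 3-1), below and above every RFP library.

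**Figure D2:**
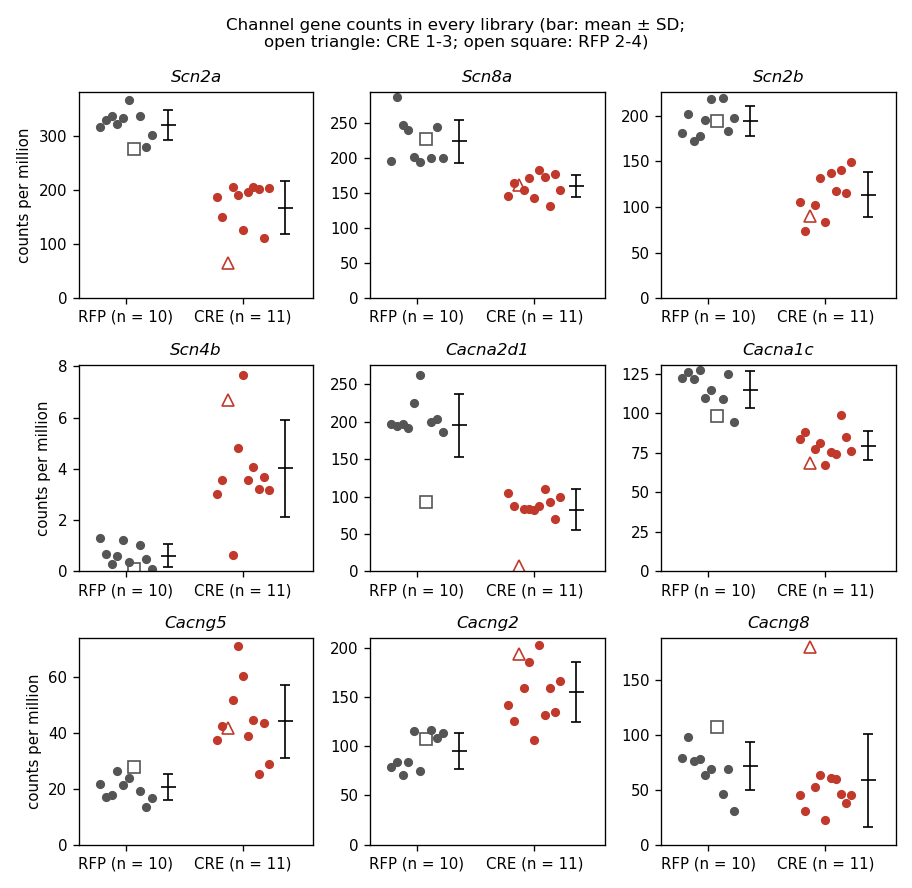
CPM (vertical axis, from 0) of 9 channel genes in each of the 10 RFP and 11 CRE libraries, with the mean and SD of each group as a black bar. Open symbols are CRE 1-3 and RFP 2-4. Both groups are separate for Scn2a, Scn8a and Scn2b, and Cacng8 in CRE 1-3 lies at 179 CPM, above every other library.

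The sodium channel β genes moved in opposite directions. Scn2b (β2, which is disulfide-linked to the pore and brings it to the surface; chr9:45029080-45041368, plus strand) had a lowest, median and highest level of 172, 195 and 219 CPM in RFP libraries and of 73.7, 116 and 149 CPM in CRE libraries, with no overlap. The mean was 194.2 ± 16.1 CPM (SD, n = 10) against 113.4 ± 24.6 CPM (SD, n = 11), and the log2 fold change was -0.79 ± 0.11 (SE, adjusted p = 7.91e-06, edgeR). It was -0.77 ± 0.10 over 19 libraries and -0.23 on the neuron scale, where the call was lost.
Scn4b (β4, which provides the blocking particle of resurgent sodium current; chr9:45049595-45065452, plus strand) starts 8226 bases after the end of Scn2b on the same strand. It had a lowest, median and highest level of 0.0908, 0.529 and 1.29 CPM in RFP libraries, or 1 to 14 reads, and of 0.637, 3.58 and 7.68 CPM in CRE libraries, or 8 to 101 reads. In 10 of 11 CRE libraries it lay above every RFP library, and the exception was CRE 1-4. The mean was 0.612 ± 0.440 CPM (SD, n = 10) against 4.02 ± 1.88 CPM (SD, n = 11), a log2 fold change of 2.69 ± 0.44 (SE, adjusted p = 4.12e-05, edgeR), the widest change of the 28 channel genes tested. It was 2.47 ± 0.44 over 19 libraries and 3.34 on the neuron scale. Reads of Scn4b per read of Scn2b had a median of 0.00294 in RFP libraries (0.000468 to 0.00712) and of 0.0319 in CRE libraries (0.00622 to 0.0916), a ratio taken after the values were seen. The groups overlapped in CRE 1-4 alone.

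The exon-free bases before the RefSeq start of Scn2b (chr9:45028924-45029079, plus strand, 35.3% G and C, 0 CG dinucleotides) are shown as those of the member of this pair that fell, and no match to the 5 motifs was found in them:
Scn2b: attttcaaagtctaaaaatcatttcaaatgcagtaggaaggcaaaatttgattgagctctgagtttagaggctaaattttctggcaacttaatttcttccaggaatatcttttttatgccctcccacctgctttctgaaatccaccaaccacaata

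Scn3b (β3) was not called. It had 216.6 ± 39.5 CPM (SD, n = 10) in controls and 208.8 ± 85.3 CPM (SD, n = 11) with CRE. Its log2 fold change was -0.07, with a 95% confidence interval of -0.50 to 0.36. It was 0.03 ± 0.18 over 19 libraries and turned to 0.47 on the neuron scale. In Scn3b the log2 ratio of group means was -0.53 in culture 1, -0.07 in culture 2 and 0.52 in culture 3. Its CRE libraries fell on both sides of the control range, 4 below every RFP library and 2 above.

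Of the calcium channel pores, Cacna1c and Cacna1b were lower in CRE libraries and no other of the 8 tested was called. Cacna1c (Cav1.2, the main L-type channel of the soma and dendrites; chr6:118564201-119173851, minus strand) had a lowest, median and highest level of 94.2, 118 and 127 CPM in RFP libraries and of 67.6, 77.6 and 98.7 CPM in CRE libraries, of which 10 of 11 lay below every RFP library. The mean was 114.9 ± 11.8 CPM (SD, n = 10) against 79.6 ± 9.05 CPM (SD, n = 11), and the log2 fold change was -0.55 ± 0.09 (SE, adjusted p = 3.76e-05, edgeR), the same over 19 libraries, and 0.05 on the neuron scale. Cacna1b (Cav2.2, the N-type channel of presynaptic terminals; chr2:24493899-24653221, minus strand) had a lowest, median and highest level of 124, 138 and 166 CPM in RFP libraries and of 93.7, 117 and 151 CPM in CRE libraries, and the highest of the latter was CRE 1-3. The fitted log2 fold change was -0.26 ± 0.09 (SE, adjusted p = 0.0311, edgeR) and -0.28 ± 0.07 over 19 libraries. With all 23 libraries it was -0.16 with an adjusted p of 0.256, and on the neuron scale it turned to 0.35 with an adjusted p of 0.0194. The call of Cacna1b thus depends on the libraries and the scale.

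Cacna1a (Cav2.1, the P/Q-type channel that carries most release at mature synapses) had 119.5 ± 20.6 CPM (SD, n = 10) in controls and 127.8 ± 78.1 CPM (SD, n = 11) with CRE. CRE 1-3 held 359 CPM, and the other 10 CRE libraries lay between 91.3 and 133 CPM. The log2 fold change was 0.08 (95% confidence interval -0.34 to 0.50), and -0.16 ± 0.10 over 19 libraries. Cacna1e (Cav2.3, R-type) had a log2 fold change of -0.32 ± 0.16 (SE, adjusted p = 0.135, edgeR), and -0.28 ± 0.11 over 19 libraries with an adjusted p of 0.0452. Cacna1h (Cav3.2, T-type) had one of -0.37 ± 0.20 (SE, adjusted p = 0.181, edgeR), and of -0.53 ± 0.16 over 19 libraries with an adjusted p of 0.00918. The remaining T-type genes, Cacna1i at -0.49 (95% confidence interval -0.91 to -0.08) and Cacna1g at 0.07 (-0.51 to 0.64), were not called with either set of libraries, and neither was the second neuronal L-type gene, Cacna1d, at -0.10 (-0.36 to 0.17). On the neuron scale the sign of Cacna1d, Cacna1e, Cacna1h and Cacna1i turned, and Cacna1d was then called higher, at 0.50, as were Cacna1a at 0.72 and Cacna1g at 0.66. None of the 8 was called higher in the main comparison (edgeR, 0 with an unadjusted p under 0.05 and 0 with DESeq2).

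Cacna2d1 showed the most marked decrease of the 28 genes. It encodes α2δ-1, the main target of gabapentin, which raises the number of calcium channels at the surface and binds thrombospondins (chr5:16139372-16579509, plus strand). It had a lowest, median and highest level of 92.8, 197 and 263 CPM in RFP libraries and of 7.76, 87.2 and 110 CPM in CRE libraries. The lowest library of each group was the one that stood apart, RFP 2-4 and CRE 1-3. Without these, RFP libraries held at least 187 CPM and CRE libraries at most 110 CPM. The mean was 194.9 ± 42.3 CPM (SD, n = 10) against 82.6 ± 27.4 CPM (SD, n = 11), and the log2 fold change was -1.26 ± 0.24 (SE, adjusted p = 0.000302, edgeR). Over 19 libraries it was -1.21 ± 0.08 with an adjusted p of 8.77e-12, and on the neuron scale -0.69. Of the 50-base stretches of its transcripts 29.0% also occur in another gene, so that its count can depend on how reads of several origins were treated. That share was 15.1% in Cacng6, 14.2% in Cacnb4 and 13.2% in Cacng4, and under 10% in the other 30. Cacna2d2 and Cacna2d3, which encode the other neuronal α2δ subunits, had log2 fold changes of -0.05 (95% confidence interval -0.39 to 0.28) and 0.19 (-0.16 to 0.55). Over 19 libraries they were -0.13 ± 0.14 and 0.23 ± 0.15, and they were 0.54 and 0.77 on the neuron scale. For Cacna2d2 the log2 ratio of group means ran from 0.30 in culture 1 to -0.66 in culture 3.

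Of the 4 calcium channel β genes, Cacnb1 and Cacnb2 were lower in CRE libraries. Cacnb1 (chr11:97892204-97913860, minus strand) had a lowest, median and highest level of 87.6, 97.2 and 130 CPM in RFP libraries and of 48.8, 62.8 and 122 CPM in CRE libraries, where the highest in each group was RFP 2-4 and CRE 1-3. The other 10 CRE libraries reached 74.5 CPM at most. Its log2 fold change was -0.57 ± 0.13 (SE, adjusted p = 0.00122, edgeR), -0.64 ± 0.08 over 19 libraries, and -0.39 with an adjusted p of 0.0798 over all 23. Cacnb2 (chr2:14607899-14994127, plus strand) had a lowest, median and highest level of 30.2, 37.3 and 51.8 CPM in RFP libraries and of 20.0, 26.9 and 34.4 CPM in CRE libraries, and 9 of 11 CRE libraries lay below every RFP library. Its log2 fold change was -0.61 ± 0.12 (SE, adjusted p = 0.000498, edgeR) and the same over 19 libraries. On the neuron scale Cacnb1 turned to 0.04 and Cacnb2 stood at -0.02, both without a call. Cacnb3, a β subunit common in hippocampus, had a log2 fold change of -0.22 (95% confidence interval -0.56 to 0.13), and -0.32 ± 0.11 over 19 libraries with an adjusted p of 0.0249. Cacnb4, mutated in the lethargic mouse, had one of 0.04 (-0.35 to 0.43), and 0.08 ± 0.12 over 19 libraries.

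Of the γ genes, 4 of the 6 tested rose in CRE libraries and none was called lower (edgeR, 1 with an unadjusted p under 0.05, 0 with DESeq2). All 6 encode TARPs. Cacng5 (γ5; chr11:107765431-107811030, minus strand) had a lowest, median and highest level of 13.4, 20.2 and 27.8 CPM in RFP libraries and of 25.3, 42.3 and 70.9 CPM in CRE libraries, of which 10 of 11 lay above every RFP library. The mean was 20.5 ± 4.54 CPM (SD, n = 10) against 44.1 ± 13.1 CPM (SD, n = 11), a log2 fold change of 1.09 ± 0.17 (SE, adjusted p = 1.91e-05, edgeR) and 1.15 ± 0.16 over 19 libraries. The libraries left out of the main comparison went the other way, with 19.1 CPM in CRE 3-3 and 51.0 CPM in RFP 3-2, and over all 23 the change was 0.87 with an adjusted p of 0.00249.
Cacng3 (γ3) had a lowest, median and highest level of 11.5, 16.0 and 27.7 CPM in RFP libraries and of 20.9, 29.8 and 52.2 CPM in CRE libraries, of which 7 of 11 lay above every RFP library. The log2 fold change was 0.83 ± 0.19 (SE, adjusted p = 0.00138, edgeR) and 0.92 ± 0.18 over 19 libraries.
Cacng2 (γ2 or stargazin, whose loss causes the stargazer mouse) had a lowest, median and highest level of 70.7, 96.0 and 117 CPM in RFP libraries and of 107, 160 and 204 CPM in CRE libraries, and 10 of 11 lay above every RFP library. This gave a log2 fold change of 0.69 ± 0.13 (SE, adjusted p = 0.000185, edgeR) and 0.67 ± 0.12 over 19 libraries.
Cacng7 (γ7) had a lowest, median and highest level of 122, 140 and 187 CPM in RFP libraries and of 149, 191 and 300 CPM in CRE libraries, of which 6 of 11 lay above every RFP library. The fitted change was 0.39 ± 0.12 (SE, adjusted p = 0.0137, edgeR) on the log2 scale, and 0.35 ± 0.09 over 19 libraries. The direction of these 4 genes was the same in each of the 3 cultures when CRE and RFP libraries were matched by number.

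Cacng4 (γ4) and Cacng8 (γ8, the TARP most enriched in hippocampus) were not called. Cacng4 had 143.4 ± 27.8 CPM (SD, n = 10) in controls and 113.3 ± 32.2 CPM (SD, n = 11) with CRE, a log2 fold change of -0.36 ± 0.15 (SE, adjusted p = 0.0728, edgeR). Cacng8 had 71.4 ± 22.2 CPM (SD, n = 10) and 58.4 ± 42.1 CPM (SD, n = 11), a log2 fold change of -0.31 ± 0.27 (SE, adjusted p = 0.418, edgeR), with 179 CPM in CRE 1-3 and at most 63.0 CPM in the other 10 CRE libraries. Over 19 libraries both were called lower, at -0.38 ± 0.12 (adjusted p = 0.0186, edgeR) and -0.57 ± 0.19 (adjusted p = 0.0227, edgeR). On the neuron scale both signs turned, to 0.21 and 0.32, and over all 23 libraries Cacng8 stood at 0.30.

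The bases before the upstream RefSeq start of Cacng5 (chr11:107805896-107806131, minus strand, 61.9% G and C) lie within the annotated gene but outside every exon, and are shown as those of the γ gene that rose most. They held 1 CCAAT and 2 GGGCGG, read here on the opposite strand:
Cacng5: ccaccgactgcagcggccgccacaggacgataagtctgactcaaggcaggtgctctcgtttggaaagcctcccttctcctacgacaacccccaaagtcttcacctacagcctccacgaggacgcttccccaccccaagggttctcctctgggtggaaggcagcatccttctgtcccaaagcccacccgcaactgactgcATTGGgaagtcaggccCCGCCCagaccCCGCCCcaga

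Cacng5 and Cacng4 are neighbours on chromosome 11, on the same strand and 79768 bases apart. Reads of Cacng5 per read of Cacng4 had a median of 0.141 in RFP libraries (0.102 to 0.198) and of 0.347 in CRE libraries (0.236 to 0.920), with no overlap and with CRE 1-3 as the lowest of its group. Reads of Cacng3 per read of Cacng8 had a median of 0.245 in RFP libraries (0.188 to 0.373) and of 0.657 in CRE libraries (0.171 to 1.11), where the lowest was again CRE 1-3 and the other 10 held at least 0.402. On chromosome 7 Cacng7, Cacng8 and Cacng6 follow each other on the plus strand with 22460 and 6005 bases between them, and Cacng7 was called higher while Cacng8 was not. A cluster on chromosome 2 holds Scn3a, Scn2a, Scn1a, Scn9a and Scn7a, of which Scn2a alone was called, and Scn9a and Scn7a were too low to be tested. All of these ratios were chosen after their values were seen, and they do not depend on the scaling of the libraries.

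**Figure D3:**
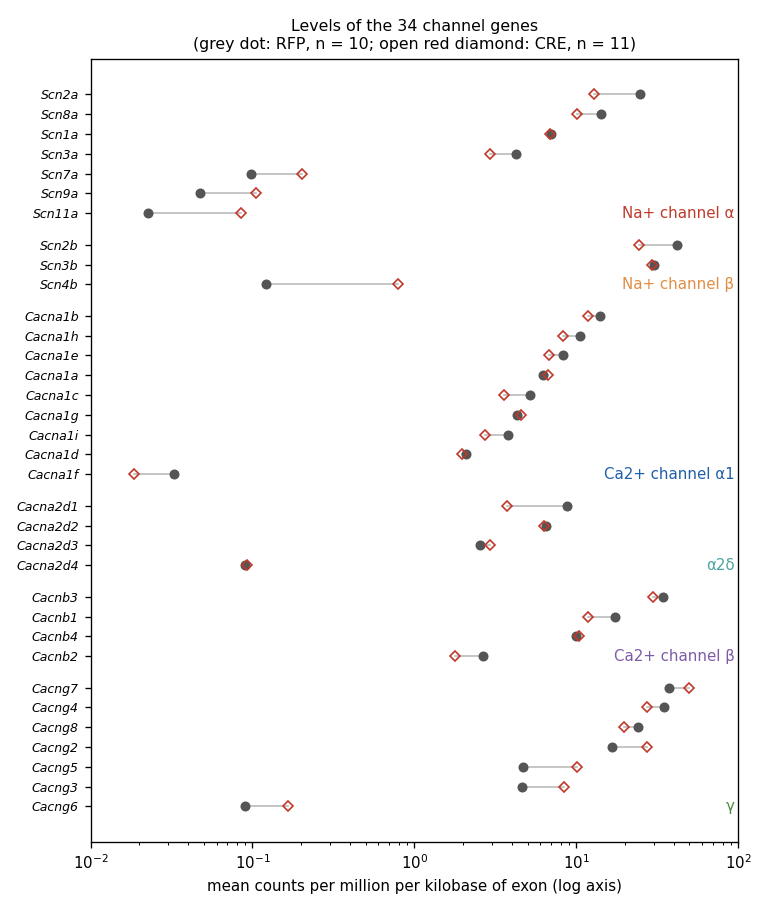
Mean level of each of the 34 channel genes per kilobase of exon (horizontal log axis, CPM per kilobase) in RFP (grey dots, n = 10) and CRE libraries (open diamonds, n = 11), by family. The 6 genes too low to be tested lie below 0.21 on this axis in both groups.

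Levels per kilobase of exon placed these changes in the make-up of each family. Among the sodium channel pores of RFP libraries, Scn2a came first with 24.6 ± 2.12 CPM per kilobase (SD, n = 10), followed by Scn8a with 14.2 ± 1.94, Scn1a with 6.94 ± 1.72 and Scn3a with 4.27 ± 0.634. No neighbours in that order overlapped by 1 SD. Scn2a made up 49.1% ± 3.04 of the sum over the 7 pore genes described in RFP libraries (SD, n = 10; 45.4% to 55.5%) and 38.1% ± 4.98 in CRE libraries (SD, n = 11; 28.8% to 43.1%), again with no overlap. The share of Scn1a was 13.8% ± 2.95 (SD, n = 10) in controls and 20.1% ± 4.88 (SD, n = 11) with CRE, with 7.38% in CRE 1-3 and 18.9% to 26.0% in the other 10. The summed level of these 7 was 50.2 ± 3.49 CPM per kilobase in controls (SD, n = 10) and 33.2 ± 6.83 with CRE (SD, n = 11). The lowest RFP library held 43.9 and the highest CRE library 40.4.

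Of the sodium channel β genes, Scn2b stood at 41.7 ± 3.45 CPM per kilobase in RFP libraries (SD, n = 10). The calcium channel pores were spread more evenly, with Cacna1b first at 14.0 ± 1.23 and Cacna1h second at 10.5 ± 1.99 CPM per kilobase (SD, n = 10). The share of Cacna1b was 25.8% ± 1.88 in controls (SD, n = 10) and 26.2% ± 4.10 with CRE (SD, n = 11). Cacna2d1 made up 48.7% ± 7.18 of the α2δ family in controls (SD, n = 10) and 28.9% ± 10.0 with CRE (SD, n = 11). Reads of Cacna2d3 per read of Cacna2d1 ran from 0.0830 to 0.212 in RFP and from 0.253 to 1.72 in CRE libraries, with no overlap. The highest of each group was RFP 2-4 and CRE 1-3, and the others reached 0.156 and 0.481 at most. In the γ family Cacng7 and Cacng4 led in RFP libraries, with 37.3 ± 5.32 and 34.8 ± 6.74 CPM per kilobase (SD, n = 10), within 1 SD of each other. The share of Cacng4 was 28.4% ± 3.75 in controls (SD, n = 10) and 19.2% ± 2.67 with CRE (SD, n = 11), that of Cacng2 13.8% ± 2.97 and 19.4% ± 2.20, and that of Cacng5 3.83% ± 0.669 and 7.45% ± 2.78. Shares of a family are bound to each other and are given as descriptions.

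**Figure D4:**
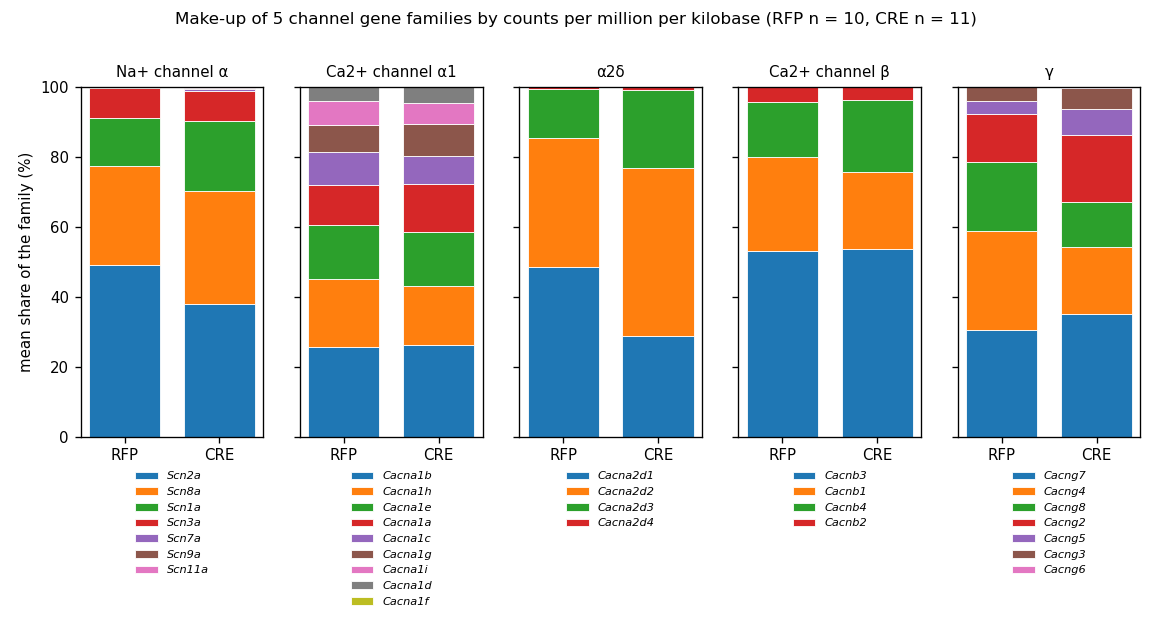
Mean share (vertical axis, percent of CPM per kilobase) of each gene in the described genes of 5 families in RFP (n = 10) and CRE libraries (n = 11). The share of Scn2a is 49.1% in RFP and 38.1% in CRE libraries, and that of Cacna2d1 48.7% and 28.9%.

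The 6 genes of too few counts to be tested had summed counts of 53 to 294. Scn11a (Nav1.9) had reads in 4 of 10 RFP and 10 of 11 CRE libraries, up to 7 and up to 12 reads. Scn9a (Nav1.7), a channel of peripheral sensory neurons like Scn11a, had 0 to 2.46 CPM in RFP and 0.0758 to 4.05 CPM in CRE libraries. Scn7a, which encodes the sodium-sensing channel Nax, had 0 to 2.84 and 0.0760 to 5.62 CPM. Summed levels of 8 markers of peripheral sensory neurons were 2.69 to 13.2 CPM in RFP and 4.18 to 21.4 CPM in CRE libraries. Cacna1f (retinal Cav1.4), Cacna2d4 and Cacng6 had means of at most 0.880 CPM in either group. Cacng6 shares 870 exon bases with a long non-coding RNA of 7746 reads on the opposite strand, and the strand setting of the counting is not given in the sources used here, so that its reads cannot be told from those of its partner. Cacna1d, with 7837 reads, shares 1477 exon bases with Chdh on the opposite strand, a gene of only 195 reads. Cacna2d4, with 223 reads, shares 49 with Lrtm2, a gene of 9934 reads on the opposite strand.

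Levels of the channel genes in CRE 1-3 and RFP 2-4 followed base composition. Of the 9 tested channel genes with over 55% G and C in their exons, CRE 1-3 was the highest CRE library in 8, and of the 6 with under 45% it was the lowest in all 6. The median log2 ratio of CRE 1-3 to the other CRE libraries was 0.98 in the first and -2.20 in the second set. RFP 2-4 was the highest RFP library in 7 of the 9 and the lowest in all 6, with median log2 ratios of 0.44 and -0.48. Over the 19 libraries, 6 more genes were called lower than over 21. In CRE 1-3, Cacna1h, Cacnb3, Cacng4 and Cacng8 were the highest and Scn3a and Cacna1e the lowest of the CRE libraries. When CRE 1-3 alone was left out, Cacna1i was called lower and Cacna1e was not. With the GC trend taken out of each library, 5 of the 28 genes were called higher and 11 lower, against 19.4% and 17.6% of all genes. The 5 genes called in the main comparison as higher and the 8 called lower were all called in that fit as well.

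**Figure D5:**
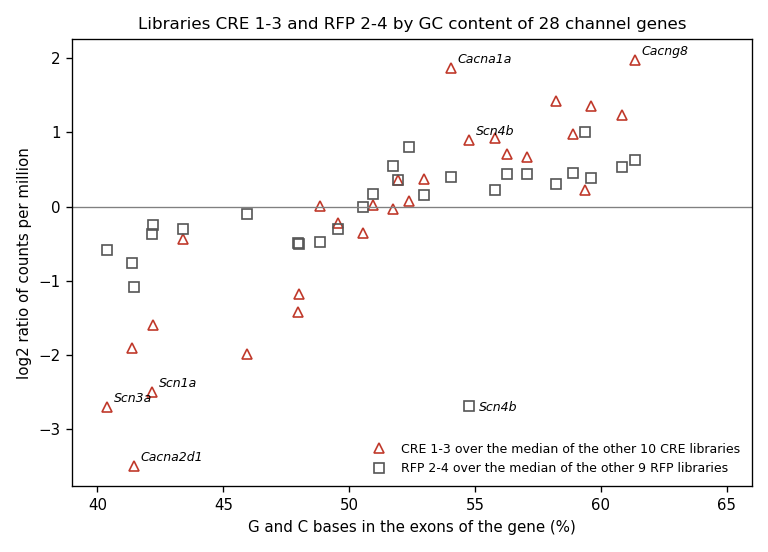
Log2 ratio of CPM in CRE 1-3 (triangles) and RFP 2-4 (squares) to the median of the other libraries of the same group (vertical axis), against the G and C content of the exons (horizontal axis, percent) for 28 channel genes. Ratios of CRE 1-3 run from below -3 for Cacna2d1 to about 2 for Cacng8.

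The change was compared between the 3 cultures with CRE and RFP libraries matched by the number before the hyphen. Whether equal numbers share a source is not known, so the test cannot show whether the change was alike between cultures. A test of the group by culture interaction called 0 of the 28 channel genes (edgeR, 0 with an unadjusted p under 0.05, lowest adjusted p = 0.977) and 0.0069% of all genes. Means of both groups within each culture gave the same direction in all 3 cultures for 20 of the 28 genes. Of these 14 were lower and 6 higher in CRE libraries. The share over all genes was not counted, and these are the libraries that gave the calls above. For Scn2a the log2 ratios of group means were -1.10, -0.85 and -0.83 in cultures 1, 2 and 3, for Cacna2d1 -1.47, -1.09 and -1.17, for Scn4b 2.21, 3.16 and 2.65, and for Cacng5 1.20, 1.11 and 0.99.

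Genes that act with these channels were taken from 5 lists written with the earlier results of these data known. Among 19 partners of sodium channels and of the axon initial segment, 6 were lower and 2 higher in CRE libraries (median log2 fold change -0.20, against 0.02 over all genes), and 9 and 2 over 19 libraries. Cntn2, an adhesion protein of the axon initial segment and node, fell from 163.0 ± 63.9 CPM (SD, n = 10) to 51.2 ± 14.8 CPM (SD, n = 11), a log2 fold change of -1.69 ± 0.20 (SE, adjusted p = 4.02e-07, edgeR). Cntn1, which binds sodium channel β subunits, fell by 1.15 on the log2 scale, and Fgf13, an intracellular sodium channel modulator, fell by 0.94. Rest, the repressor of neuronal genes that include sodium channels, rose from 13.8 ± 3.35 CPM (SD, n = 10) to 24.4 ± 6.09 CPM (SD, n = 11), a log2 fold change of 0.80 ± 0.16 (SE, adjusted p = 0.000512, edgeR). Fgf11 had a log2 fold change of 0.30, with an adjusted p of 0.0467 by edgeR and of 0.160 over all 23 libraries. Of 7 sodium leak and two-pore channel genes, 3 were lower and 1 higher (median -0.46), and 5 and 0 over 19 libraries. Nalcn, the pore of the sodium leak channel, fell from 81.2 ± 16.9 CPM (SD, n = 10) to 35.9 ± 17.1 CPM (SD, n = 11), Unc80 fell by 0.60 and Nalf2 fell by 0.49 on the log2 scale, and these encode parts of the same complex. On the neuron scale Nalf2 turned to 0.11, and over all 23 libraries it stood at -0.33 with an adjusted p of 0.159 by edgeR. Tpcn2, a lysosomal channel, was called higher at 1.61, and its adjusted p over 19 libraries was 0.139.

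Of 19 partners of calcium channels at the active zone, 13 were lower in CRE libraries and 0 higher (edgeR, 0 with an unadjusted p under 0.05, 0 with DESeq2), with a median log2 fold change of -0.43. Over 19 libraries 14 were lower. Erc2, a scaffold of the active zone, fell from 238.7 ± 25.2 CPM (SD, n = 10) to 109.4 ± 32.2 CPM (SD, n = 11), a log2 fold change of -1.14 ± 0.16 (SE, adjusted p = 7.51e-06, edgeR). Stx1a, a release SNARE that binds N-type and P/Q-type channels, fell by 1.04, and Rims1, which tethers calcium channels at release sites, fell by 0.72 on the log2 scale. All 3 stayed below 0 on the neuron scale. The pores that these proteins hold, Cacna1a and Cacna1b, had log2 fold changes of 0.08 and -0.26, of which the second was called. Over 19 libraries they were -0.16 and -0.28, again with the second alone called. Neither was called over all 23 libraries.

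Of 20 tested calcium channel modulators, 5 were lower and 5 higher (median -0.22), and 9 and 5 over 19 libraries. The genes of lowest p among those called higher encode small GTP-binding proteins that inhibit calcium channels through the β subunit, and an adaptor. Gem rose from 5.79 ± 3.82 CPM (SD, n = 10) to 35.9 ± 9.43 CPM (SD, n = 11), a log2 fold change of 2.61 ± 0.29 (SE, adjusted p = 1.37e-07, edgeR). Rrad, of the same family, rose from 0.417 ± 0.740 CPM (SD, n = 10) to 4.77 ± 3.17 CPM (SD, n = 11), and Stac, an adaptor that slows inactivation of L-type channels, from 1.01 ± 1.19 to 6.01 ± 5.16 CPM. Their log2 fold changes were 3.42 ± 0.75 (SE, adjusted p = 0.001, edgeR) and 2.56 ± 0.56 (SE, adjusted p = 0.00102, edgeR). Over 19 libraries they were 3.15 (adjusted p = 0.00201, edgeR) and 2.33 (adjusted p = 0.0024, edgeR). Gem lay above every RFP library in all 11 CRE libraries, Rrad in 8 and Stac in 6. Stac stood at 12.8 CPM in CRE 1-3. Ppp3cb and Ppp3ca, which encode the catalytic subunits of calcineurin, fell by 0.96 and 0.81 on the log2 scale.

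Of 15 AMPA receptor genes beside the TARPs, 9 were lower and 1 higher in CRE libraries (median -0.59), and the same counts held over 19 libraries. The pore subunit Gria1 fell from 780.5 ± 58.3 CPM (SD, n = 10) to 420.6 ± 125 CPM (SD, n = 11), a log2 fold change of -0.91 ± 0.16 (SE, adjusted p = 7.67e-05, edgeR). Cnih3, an auxiliary subunit that competes with TARPs, fell by 1.35, and Frrs1l, which acts in receptor assembly, fell by 0.90 on the log2 scale. Gria4 rose, from 108.9 ± 17.5 CPM (SD, n = 10) to 163.2 ± 57.7 CPM (SD, n = 11), at a log2 fold change of 0.56 ± 0.18 (SE, adjusted p = 0.0215, edgeR). The TARP genes called higher stood beside AMPA receptor genes of which most were called lower, in the same libraries.

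Markers of other cells moved as well. Of 10 markers of dividing cells, all 10 were lower in CRE libraries, with a summed level of 8.58 to 203 CPM against 199 to 327 CPM. The lowest was CRE 1-3, and the other CRE libraries held at least 32.8 CPM. Of 10 tested oligodendrocyte lineage markers 7 were lower and 0 higher (edgeR, 0 with an unadjusted p under 0.05, 0 with DESeq2), with summed levels of 451 to 1981 CPM in CRE and 690 to 2306 CPM in RFP libraries. The highest CRE library was CRE 1-3, and the others held at most 1118 CPM. Of 10 astrocyte markers 3 were lower and 2 higher. Summed levels of 10 skeletal and heart muscle markers were 5.25 to 15.6 CPM in CRE and 5.74 to 18.0 CPM in RFP libraries, and none of the 10 was at 0 in all 21 libraries. Of the 5 that could be tested 1 was lower in CRE libraries and 0 higher (edgeR, also 0 with an unadjusted p under 0.05 and 0 with DESeq2). Microglia markers summed to at most 11.8 CPM in any library, and endothelial and mesenchymal markers to 14.1 to 384 CPM in CRE and 18.0 to 137 CPM in RFP libraries. None of the markers in these lists was at 0 in all 21 libraries. Their part in the changes of the channel genes was not tested.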

How the data were processed

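Reads per gene were counted in 23 libraries. Per the labels and the study's methods, the authors prepared libraries with a stranded mRNA kit, aligned reads with STAR 2.7.8a to GRCm39 with Ensembl release 110, counted them with featureCounts 1.5.0-p1 (names and versions from the submitters' processing notes) and deposited raw counts as whole numbers without normalization. The strand setting and the treatment of reads that map to several places are not given in the sources used here.

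Gene names came from GENCODE M39, which named 56323 of 56941 identifiers. The channel genes and all lists were chosen with earlier results of these data known. Counts of 21 libraries were filtered with edgeR's filterByExpr, scaled by TMM and tested with edgeR 4.0.16 (quasi-likelihood, Benjamini-Hochberg over all genes tested), in R 4.3.3, with DESeq2 1.42.0 and limma 3.58.1 as alternatives. Of the channel genes above the count limit, 2 are not reported here and were left out of all counts over channel genes, as was a gene of a partner list. From each partner list, up to 3 genes of lowest p in each direction were named. The fits were tested on simulated data with known changes. Other settings changed the set of libraries, tool, scaling, filter, replicate block, and GC or length trend. Levels between genes are CPM per kilobase of exon.

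The numbers before the hyphen pair the libraries only in name: deviations of equally numbered CRE and RFP libraries correlated at 0.0337, 0.0411 and 0.135. The labels give 12 days in culture, as does the results text of the study, while its methods and a figure legend give another day. Its methods leave CRE 1-3 and CRE 3-3 out of the differential analysis and its count table CRE 3-3 and RFP 3-2, and the table was followed here. The limit of the stricter thresholds was applied to adjusted p.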

Additional observations from a re-analysis of the deposited data

Results flagged for a closer look

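In 4 of the 28 tested channel genes a single RFP library lay far from the other 9, by the gap to its nearest neighbour relative to the range of the 10, and in all 4 it was RFP 2-4. It was lowest for Scn3a (38.6 CPM, next 53.4) and Cacna2d1 (92.8 CPM, next 187), both of low GC content. It was highest for Cacnb1 (130.0 CPM, next 106) and Cacnb3 (234 CPM, next 175), both of high GC content. Chance alone flags about 1 in 20 such groups, and genes of 1 library are not independent. RFP 2-4 also had a lower mitochondrial share than the other RFP libraries, and its part in these values was not tested.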

How the results depend on the processing

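The number of channel genes called lower in CRE libraries was 8 and rose to 13 over the libraries left by the methods section of the study, and to 14 without CRE 1-3 and likewise without all 4 libraries that stand apart. Over all genes tested the lower calls rose as well. They went from 1996 of 14488 to 2572 of 14482, 2717 of 14498 and 2743 of 14666, in that order. With each library left out in turn, 5 were called higher in every case, 7 to 14 lower and 0 past the stricter thresholds. Of all genes 2024 to 2790 were called higher and 1839 to 2717 lower in these fits. With each culture left out in turn, 4 to 5 were called higher and 6 to 8 lower, against 1311 to 1907 and 803 to 1823 of all genes. Neuron marker scaling gave 14 higher, 2 lower and 2 past the stricter thresholds. On that scale 59.6% of all genes were called higher and 543 of 14488 passed those thresholds. DESeq2 gave 1 past them, against 549 of 14488 genes. On the neuron scale the sign turned for 8 genes called in either fit, Scn1a (0.51), Scn8a (0.09), Scn3b (0.47), Cacna1b (0.35), Cacna1c (0.05), Cacna1d (0.50), Cacna2d2 (0.54) and Cacnb1 (0.04), and for 6 called in neither, Cacna1e (0.25), Cacna1h (0.25), Cacna1i (0.07), Cacnb3 (0.38), Cacng4 (0.21) and Cacng8 (0.32). That scaling moves every gene up by a like amount. With a replicate block by culture number 5 were called higher and 8 lower, with one by library number 5 and 9, and with the GC trend removed 5 and 11, with or without the block. Of 1092 values of single genes under an alternative, 974 kept direction and call, 15 lost the call, 46 gained one, 8 reversed and 49 without a call changed sign. Genes without a call may still differ, since the spread between libraries limits the size of change that can be called. Calls of Cacna1b, Cacnb1 and Cacng7 depend on the choice of libraries. The log2 fold change of Cacng7 had an adjusted p of 0.137 without culture 2 and of 0.0569 without culture 3, the log2 fold change of Cacna1b one of 0.374 and 0.067, and the log2 fold change of Cacnb1 one of 0.11 without culture 2 (edgeR).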

Other observations

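The libraries left out of the main comparison differed from their groups in several channel genes. CRE 3-3, of 1546796 counts in all, held 661 CPM of Cacna1a, 391 CPM of Cacng8 and 304 CPM of Cacng2, above all 11 compared CRE libraries, and 8.19 CPM of Scn1a and 10.2 CPM of Scn3a. Scn4b in CRE 3-3 was at 2.05 CPM, above every RFP library, but this value rests on 3 reads. RFP 3-2, of 7635735 counts, held 51.0 CPM of Cacng5 and 148 CPM of Cacnb4, above all 10 compared RFP libraries, and 6.83 CPM of Cacna1g, below all of them. Scn2a in RFP 3-2 was at 312 CPM and in CRE 3-3 at 128 CPM, each within the range of its group.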
